A study of Mus musculus with 36 samples.

Results

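The genes described here encode 9 enzymes of serine and one-carbon metabolism: Phgdh, Psat1, Psph, Shmt1, Shmt2, Mthfd1, Mthfd2, Mat2a and Ahcy. They were taken by name from the deposited expression tables, and all 9 were found in both tables, among 24346 distinct gene symbols on 24883 rows. RNA was measured in a dissected brain region enriched for the suprachiasmatic nucleus (SCN), the hypothalamic nucleus that holds the central circadian clock of mammals. All mice were adult C57BL/6J, and they had eaten either normal chow or a high-fat diet for 10 weeks. Each diet had 18 libraries, 3 at each of the zeitgeber times (ZT) 0, 4, 8, 12, 16 and 20, which gives 12 groups and 36 libraries. Whether the 3 libraries of a group stem from separate animals or from pools is not in the labels, so p-values measure the spread between libraries, which may be technical. Each diet has its own table, and an effect of table processing cannot be told apart from diet.

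Serine is made from the glycolytic intermediate 3-phosphoglycerate by Phgdh, Psat1 and Psph in turn. Serine hydroxymethyltransferases pass a carbon of serine to tetrahydrofolate and release glycine, and the Mthfd enzymes convert the folate-bound unit between its oxidation states, with parallel sets of enzymes in the cytosol and the mitochondria. The methionine cycle uses such units to remake methionine, which Mat2a converts to S-adenosylmethionine, the methyl donor of the cell, and Ahcy removes the S-adenosylhomocysteine left after methyl transfer. In brain, serine synthesis is best known from astrocytes, whose serine is also the source of the NMDA receptor co-agonist D-serine.

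Levels are FPKM values, which are read counts divided by transcript length and library size, rescaled so that each library sums to 1000000. They can be compared between genes on that per-length scale. The deposited sums ran from 302899 to 432336 per library, and reads per library are not stated, so the depth behind each value is unknown. All 6 SCN markers (Avp, Vip, Rorb, Lhx1, Six6 and Nms) were found, with a summed level from 262 to 4358 per library and a median of 1622. The libraries span 6 times of day, and the parts of tissue share and of expression in this spread were not tested. The 5 markers of other hypothalamic nuclei summed to 628 to 6296, the 10 astrocyte markers to 2764 to 4522 and the 6 neuronal markers to 2971 to 4360. In 3 libraries 6 liver transcripts such as Alb summed to over 10 times the median of 48.1, and in 2 libraries 6 striatal markers summed to over 5 times the median of 122. In bulk tissue, fewer cells of a type and less RNA per cell cannot be told apart.

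The 9 transcripts spanned a wide range of levels, and none was listed at 0 in any library. Mat2a had the highest mean, 143 ± 15.8 (SD, n = 36), followed by Phgdh at 137 ± 16.1 and Psat1 at 119.9 ± 13.1 (both SD, n = 36). Mat2a lay above Phgdh in only 24 of 36 libraries, and its range of 112 to 171 was covered by that of Phgdh, 102 to 173, so these neighbours did not differ beyond their spread. Phgdh lay above Psat1 in 31 of 36 libraries, and their ranges overlapped. The next step down was larger: Psat1 exceeded Ahcy in 36 of 36 libraries, and the ratio of their medians was 2.71.

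Ahcy averaged 44.7 ± 9.04, Mthfd1 33.2 ± 2.27, Psph 22.4 ± 2.46, Shmt2 18.1 ± 1.34 and Mthfd2 15.7 ± 1.61 (SD, n = 36 each). Shmt1, the cytosolic hydroxymethyltransferase, was by far the lowest, with a median of 1.20 and a range from 0.631 to 7.43. Neighbours in this order were separated in every library except that Psph exceeded Shmt2 in 34 and Shmt2 exceeded Mthfd2 in 31 of 36. Among rows with a mean of at least 1, Mat2a stood at the 91.4 percentile of mean level and Shmt1 at the 3.92 percentile. Mthfd1 varied least between libraries, with a coefficient of variation of 6.85%, and Shmt1 most, with 76.2%.

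**Figure D1:**
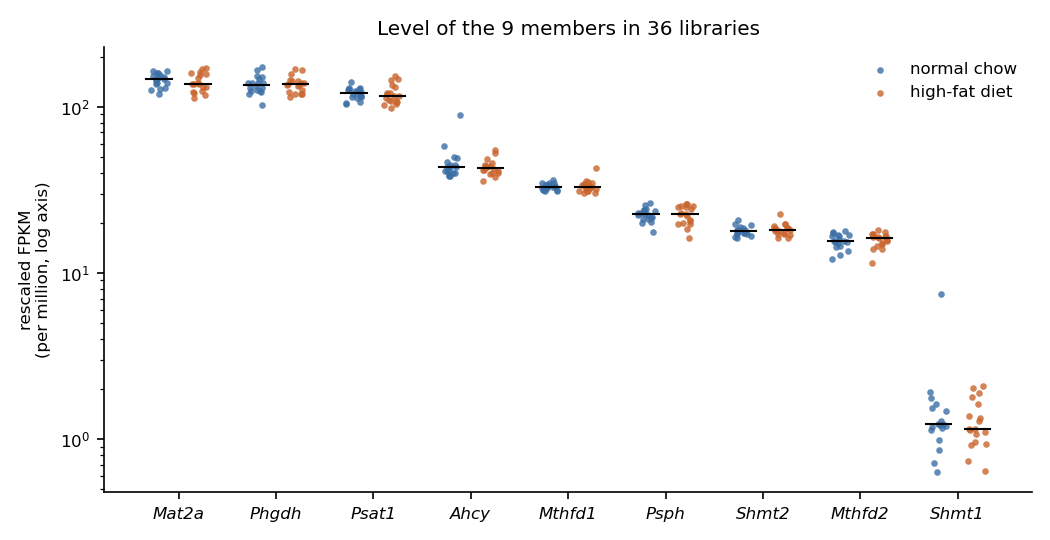
Level of each enzyme gene (rescaled FPKM, log axis) in the 36 libraries, with normal chow and high-fat diet side by side; each point is a library and each bar the median of a diet. Mat2a, Phgdh and Psat1 lie between 98.3 and 173, Shmt1 lies near 1.20, and a single Shmt1 library reaches 7.43.

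Relations within a step were much alike in the 2 diets. The mitochondrial Shmt2 exceeded its cytosolic counterpart Shmt1 in all 36 libraries, with a median ratio of 13.9 on normal chow and 14.9 on high-fat diet (18 libraries each). For the next enzymes of the folate path, the cytosolic gene was the higher of the 2 compared. The cytosolic Mthfd1, which carries 3 activities in a single protein, had a median ratio to the mitochondrial Mthfd2 of 2.06 on normal chow and 2.03 on high-fat diet. The related gene Mthfd2l, also mitochondrial, averaged 18.4 and is left out of this ratio, which therefore gives no order of compartments. In the serine path, Phgdh stood at a median of 5.93 and 6.01 times Psph, and at 1.10 and 1.12 times Psat1, in normal chow and high-fat diet respectively. The median ratio of Mat2a to Ahcy was 3.34 on normal chow and 3.19 on high-fat diet.

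Sequence shared with other genes limits some of these levels, since the counting method is not given in the sources used here. In the mouse annotation (GENCODE M21, GRCm38), 79.4% of the 31-base words of the longest coding Ahcy transcript also occur in transcripts of other genes, 76.5% in the copy Gm4737. Gm4737 has a row of its own, with a median level of 18.6 and a range of 14.9 to 43.2. Of the Phgdh words, 73.5% occur in 23 other genes, with 59.0% in Gm7901. The share was 12.6% for Mat2a, 5.05% for Shmt2, 3.56% for Psat1 and 0.636% for Shmt1, and it was 0 for Psph, Mthfd1 and Mthfd2. The levels of Ahcy and Phgdh are therefore uncertain.

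The genes lie apart in the genome (GRCm38). On the minus strand, Phgdh spans chr3:98313170-98339990, Psat1 chr19:15904678-15947337 and Psph chr5:129765558-129787449. Also on the minus strand are Shmt1 at chr11:60788104-60811718, Shmt2 at chr10:127517123-127522444, Mthfd2 at chr6:83305691-83325908, Mat2a at chr6:72432799-72439558 and Ahcy at chr2:155059310-155074497. Mthfd1 is on the plus strand at chr12:76255298-76319803. Only Mthfd2 and Mat2a share a chromosome.

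The first and the last gene of the serine path, Phgdh and Psph, varied together across libraries, as described further on, and the 250 bases before their RefSeq starts (GRCm38.p6) are shown for that reason. The Phgdh stretch is chr3:98339970-98340219 and the Psph stretch chr5:129787254-129787503, both read 5′ to 3′ on the minus strand. Both overlap the GENCODE span of their gene, Psph over most of the stretch. Nothing is in capitals, since neither searched motif was found.
Phgdh: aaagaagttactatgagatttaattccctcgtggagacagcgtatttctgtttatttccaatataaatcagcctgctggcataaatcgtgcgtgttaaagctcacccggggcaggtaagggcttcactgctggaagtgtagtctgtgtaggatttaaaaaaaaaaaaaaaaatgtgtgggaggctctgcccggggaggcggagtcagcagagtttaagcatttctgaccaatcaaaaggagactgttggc
Psph: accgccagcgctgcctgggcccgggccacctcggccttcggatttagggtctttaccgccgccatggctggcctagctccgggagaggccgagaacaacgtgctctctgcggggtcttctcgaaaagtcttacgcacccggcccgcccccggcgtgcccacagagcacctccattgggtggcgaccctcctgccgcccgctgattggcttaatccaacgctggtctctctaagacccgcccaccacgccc

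The 2 stretches differ in composition. That of Phgdh has 44.0% G and C and 7 CG steps, and that of Psph 67.2% and 23. The clock E-box CACGTG and the ATF4 site TGATGNAA (TTNCATCA on the other strand) were searched on both strands in windows of 300 bases, 250 before and 50 after each RefSeq start. All 9 genes were matched, in 10 windows, and 0 of the 10 held either motif. Of all 32851 mouse windows, 7.15% held the E-box and 3.97% the ATF4 site, so these letters are uncommon in such windows in general.

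Whether the transcripts follow the time of day was asked with a 24 h cosine fitted by limma, with Benjamini-Hochberg adjustment over all rows tested and a call at an adjusted p under 0.05. No enzyme gene was called in either diet: 0 of 9 under normal chow, where limma called 128 of 15150 rows (0.845%), and 0 of 9 under high-fat diet, where it called 11 of 15106 rows (0.0728%). With both diets in a single fit, 0 of 9 were called against 331 of 15173 rows (2.18%). At an unadjusted p under 0.05 the counts were 0, 2 and 3 of 9, against 2761, 1305 and 1986 of all rows. The median peak-to-trough fold of the 9 genes in the fit of both diets was 1.10, the same as the median over all rows tested, also 1.10. A fold here is taken on the log2(value + 1) scale, which understates the change of low genes such as Shmt1.

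Psph, the phosphatase that releases serine in the last step, came nearest to a rhythm. Its fitted peak-to-trough fold over both diets was 1.17 with a peak at ZT 18.8, an unadjusted p of 0.00946 and a limma adjusted p of 0.180. Under high-fat diet alone the fold was 1.23 and the fitted peak ZT 17.5 (limma adjusted p = 0.552), and under normal chow 1.14 at ZT 21.0 (limma adjusted p = 0.344). Its lowest group mean was 19.6 ± 4.26 at ZT 8 under high-fat diet and its highest 25.3 ± 0.483 at ZT 16 under the same diet (SD, n = 3 each). The 3 values behind the low mean were 24.4, 16.1 and 18.5, and those behind the high mean were 24.8, 25.2 and 25.8. The highest of the ZT 8 libraries thus lay just below the ZT 16 libraries, while the other 2 lay well below them.

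Phgdh, the committed and oxidising first step, had a fold of 1.02 over both diets and a limma adjusted p of 0.972. The fitted peaks of the single diets lay at ZT 5.24 under normal chow and ZT 17.1 under high-fat diet, with folds of 1.14 and 1.10. Neither passed the test, and the difference in rhythm between the diets had a limma adjusted p of 0.444. Psat1, the aminotransferase of the middle step, had a fold of 1.10 with a peak at ZT 16.5 and a limma adjusted p of 0.544.

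In the folate steps, Mthfd2 had a fold of 1.13 with a peak at ZT 0.0464 (unadjusted p 0.0340, limma adjusted p = 0.326) and Mthfd1 a fold of 1.08 with a peak at ZT 6.17 (unadjusted p 0.0436, limma adjusted p = 0.362). The lowest Mthfd2 group was normal chow at ZT 12, with 13.5, 15.0 and 12.1, and its highest high-fat diet at ZT 4, with a mean of 17.3 ± 0.740 (SD, n = 3). Shmt2 had a fold of 1.06 and Shmt1 of 1.21, with limma adjusted p-values of 0.598 and 0.694. In the methionine cycle, the folds of Mat2a and Ahcy were 1.03 and 1.11, with limma adjusted p-values of 0.941 and 0.719. The difference in rhythm between diets was called for 0 of 9 genes and, by limma, for 0 of 15173 rows (0%), with 0 of 9 genes and 2004 rows at an unadjusted p under 0.05.

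**Figure D2:**
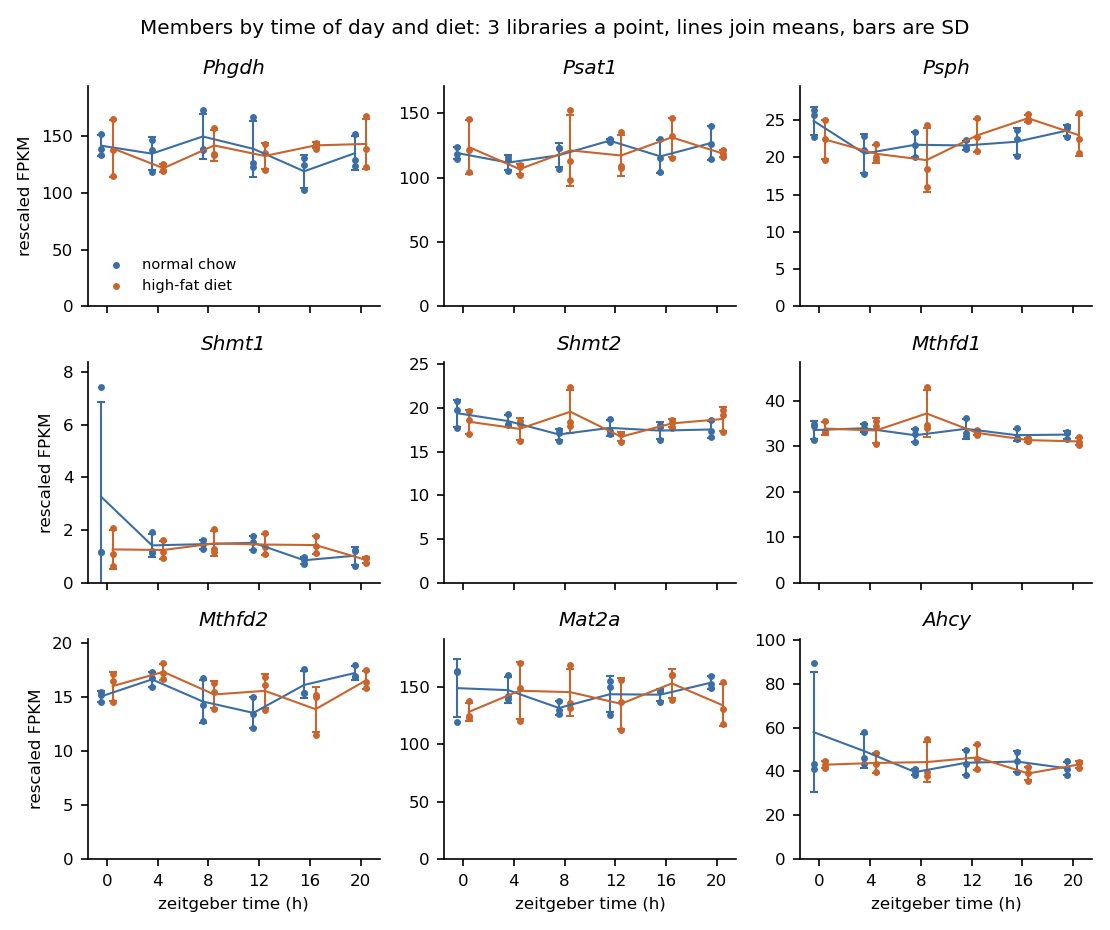
Level of each enzyme gene (rescaled FPKM, axes from 0) against zeitgeber time in hours for normal chow and high-fat diet; points are libraries, lines join the means of 3 libraries and bars are SD, cut at 0. Apart from Shmt1 and Ahcy at ZT 0, where a single normal chow library reaches 7.43 and 89.3, group means differ little between times and diets.

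No enzyme gene was called between the diets over all time points. By limma, 0 of 9 were called, against 2 of 15173 rows (0.0132%), and at an unadjusted p under 0.05 there were 0 of 9 and 389 rows. The median difference between high-fat diet and normal chow was -0.01 on the log2(value + 1) scale over the 9 genes and -0.00051 over all rows. The intervals were narrow for most genes. The 95% interval for Mthfd1 ran from -0.06 to 0.07 around 0.0047. The larger of its bounds was a change of 4.85% in value + 1, and that for Shmt2 was 6.65%. For the serine path the larger bounds were 8.53% for Phgdh, 7.54% for Psat1 and 7.41% for Psph.

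The remaining larger bounds were 8.00% for Mthfd2, 10.5% for Mat2a, 14.0% for Ahcy and 21.5% for Shmt1. In levels, Phgdh had a lowest, median and highest value of 102, 136 and 173 under normal chow and of 115, 136 and 167 under high-fat diet (18 libraries each). For Mat2a the values were 120, 146 and 164 under normal chow and 112, 138 and 171 under high-fat diet, with a log2 difference of -0.05 ± 0.055 (SE). The ranges of the diets overlapped for each of the 9 genes.

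**Figure D3:**
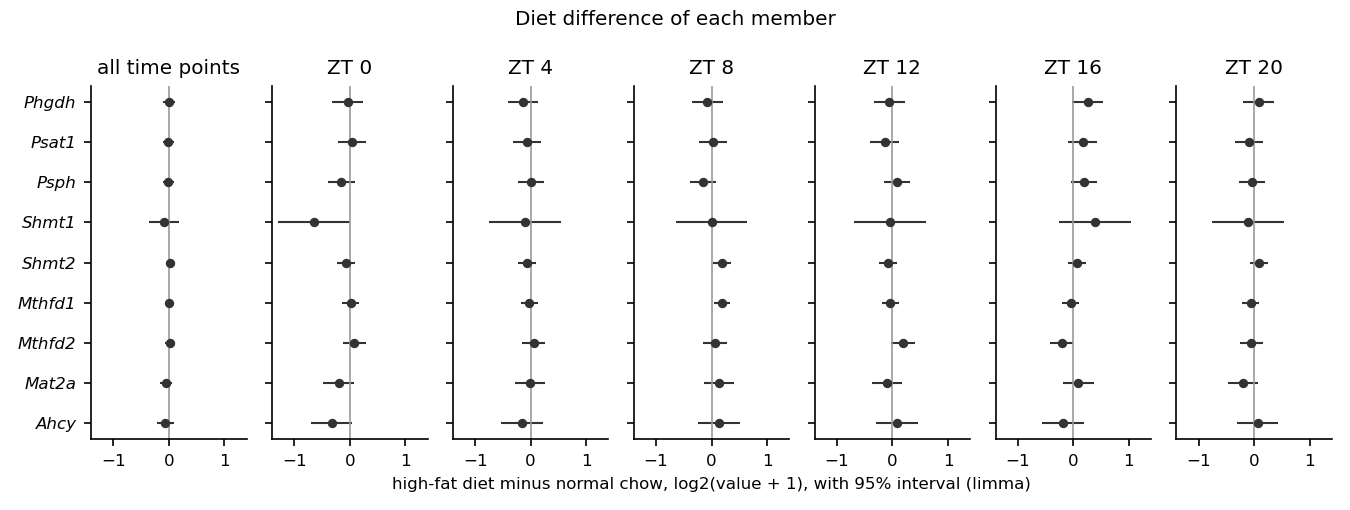
High-fat diet minus normal chow for each enzyme gene on the log2(value + 1) scale, over all time points and at each ZT; points are limma estimates and bars 95% intervals. Intervals over all time points are narrow and hold 0, and Shmt1 has the widest intervals, with -0.64 at ZT 0.

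At single time points limma again called 0 of 9 genes at each ZT. Over all 15173 rows it called 1 at ZT 12 (0.00659%) and 0 (0%) at each of ZT 0, 4, 8, 16 and 20. At an unadjusted p under 0.05 there were 592 rows at ZT 0, 227 at ZT 4, 2442 at ZT 8, 148 at ZT 12, 1630 at ZT 16 and 605 at ZT 20. Of the 9 genes only Shmt2 and Mthfd1 at ZT 8 and Mthfd2 at ZT 16 were among these. Of the 54 pairs of a gene and a time point, the 3 libraries of each diet did not overlap in 7, beside 10.2% of such pairs over all rows. High-fat diet lay above in 5 of them, namely Phgdh, Psph and Shmt1 at ZT 16 and Shmt2 and Mthfd1 at ZT 8. It lay below in 2, Shmt2 at ZT 12 and Mthfd2 at ZT 16. These are rescaled values. As deposited, of these 7 only Shmt1 and Mthfd2 at ZT 16 had groups without overlap.

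At ZT 16, Phgdh and Psph stood higher under high-fat diet. Phgdh was at 130.3, 102 and 124 under normal chow and at 144, 143 and 139 under high-fat diet. After rescaling, all 3 high-fat libraries lay above all 3 normal chow libraries. The log2 difference was 0.26 ± 0.13 (SE, limma adjusted p = 0.492), and without the second normal chow library it was 0.15. As deposited the groups overlapped, at 49.7, 38.3 and 47.4 against 55.7, 49.5 and 47.1. Psph was at 23.7, 20.2 and 22.4 under normal chow and at 24.8, 25.2 and 25.8 under high-fat diet, again without overlap. Its difference was 0.19 ± 0.12 (SE, limma adjusted p = 0.592). As deposited the Psph groups also overlapped, at 9.04, 7.56 and 8.54 against 9.60, 8.74 and 8.75. Psat1 overlapped between the diets, at 129.8, 104 and 115 against 116, 132 and 146, with a difference of 0.17, which was 0.09 without the third high-fat library. None of these differences passed the test. At this time 17.4% of all rows had groups without overlap, 5.05% with high-fat diet above and 12.3% with it below.

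Mthfd2, the mitochondrial dehydrogenase and cyclohydrolase, lay the other way at ZT 16. It was at 15.4, 17.6 and 15.4 under normal chow and at 15.0, 15.2 and 11.5 under high-fat diet, a log2 difference of -0.21 ± 0.10 (SE, unadjusted p 0.0488, limma adjusted p = 0.464). The lowest of these libraries, with 11.5, is also the one with 1585 of summed striatal markers, and without the 2 libraries rich in these markers the difference was -0.09. Shmt1 was at 0.717, 0.979 and 0.861 under normal chow and at 1.13, 1.38 and 1.78 under high-fat diet, and the limma adjusted p was 0.719.

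The marker sums of astrocytes, neurons, the SCN and ependymal cells with tanycytes did not overlap between the diets in the same ZT 16 libraries. Those of the other lists, such as oligodendrocytes, microglia and endothelial cells, overlapped. The 10 astrocyte markers summed to 3612, 2787 and 3303 under normal chow and to 4025, 4167 and 4111 under high-fat diet, without overlap. The 6 neuronal markers summed to 3542, 4360 and 3733 under normal chow and to 3016, 2971 and 3491 under high-fat diet, also without overlap and in the other direction. The SCN markers summed to 2052, 1785 and 1526 against 1013, 1054 and 765, and the 4 ependymal and tanycyte markers to 56.3, 65.9 and 52.4 against 88.9, 77.0 and 67.9. No marker of these lists was at 0 in all libraries, and their part in the values of Phgdh, Psph and Mthfd2 at ZT 16 was not tested.

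At ZT 8, Shmt2 and Mthfd1 stood higher under high-fat diet. Shmt2 was at 16.3, 17.5 and 17.2 under normal chow and at 18.4, 22.4 and 17.9 under high-fat diet, a log2 difference of 0.19 ± 0.081 (SE, unadjusted p 0.0279, limma adjusted p = 0.282). Mthfd1 was at 30.9, 32.6 and 33.7 against 33.9, 43.0 and 34.6, with a difference of 0.19 ± 0.073 (SE, unadjusted p 0.0169, limma adjusted p = 0.273). In both genes the rescaled groups just failed to overlap, at a time point where 17.2% of all rows had groups without overlap. After rescaling, the second high-fat library was far above the rest. It then held the highest Shmt2, Mthfd1 and Psat1 (152) and the lowest Psph (16.1) of all 36. Its SCN marker sum, 262, was also the lowest. As deposited, the diets overlapped in both genes. Shmt2 was then at 6.80 in that library and at 7.08 in the first high-fat library. Its deposited Mthfd1 also lay below that of the first, and its Psat1 was not the highest of all 36. Its deposited Psph was still the lowest. Without the second high-fat library the rescaled differences were 0.09 for Shmt2 and 0.08 for Mthfd1.

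The scaling also moved the ZT 8 values. Under the rescaling used here, the median of all rows was 0.12 higher on the log2 scale under high-fat diet at ZT 8, and 7 of 9 genes had a positive difference. With median-of-ratios factors the median over all rows was -0.0073, and 2 of 9 were positive, with Shmt2 at 0.06 and Mthfd1 at 0.05. At ZT 20 the number of positive differences went from 3 to 6 of 9 with the same change, and at ZT 16 it was 6 of 9 under both. No gene was called under either scaling.

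Whether the diet difference itself depended on time was tested with the diet by time point terms, which limma called for 0 of 15173 rows and 0 of 9 genes (773 rows at an unadjusted p under 0.05). The smallest adjusted p among the 9 genes was 0.720.

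At ZT 0, Shmt1 and Ahcy had wide differences that rested on a single library. Shmt1 was at 7.43, 1.17 and 1.17 under normal chow and at 0.638, 1.08 and 2.08 under high-fat diet, a log2 difference of -0.64 ± 0.31 (SE, unadjusted p 0.0506, limma adjusted p = 1.0). Ahcy was at 89.3, 43.5 and 40.9 against 41.5, 44.6 and 43.1, with a difference of -0.33 ± 0.18 (SE, limma adjusted p = 1.0). A single normal chow library held the highest value of both genes among all 36. That library also had the highest summed liver transcripts, 4365. Without it the differences were 0.0095 for Shmt1 and 0.0291 for Ahcy.

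The 3 libraries rich in liver transcripts were the first normal chow libraries of ZT 0 and ZT 4, with sums of 4365 and 947, and the third high-fat library of ZT 0, with 708. Shmt1 was at 7.43, 1.91 and 2.08 in these, and at 0.631 to 2.04 with a median of 1.17 in the other 33. Ahcy was at 89.3, 58.0 and 43.1 in these, and at 35.8 to 54.9 with a median of 42.0 in the other 33. The other 7 genes lay within the range of the 33 libraries in each of the 3, except Psph, whose 26.3 in the first was slightly above the highest of the rest, 26.0. Both Shmt1 and Ahcy are abundant in liver, and the part of liver RNA in their values was not tested. Without the 3 libraries the ZT 0 difference of Ahcy was 0.03. That of Shmt1 kept its sign, with 1.17 and 1.17 left under normal chow against 0.638 and 1.08 under high-fat diet.

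**Figure D4:**
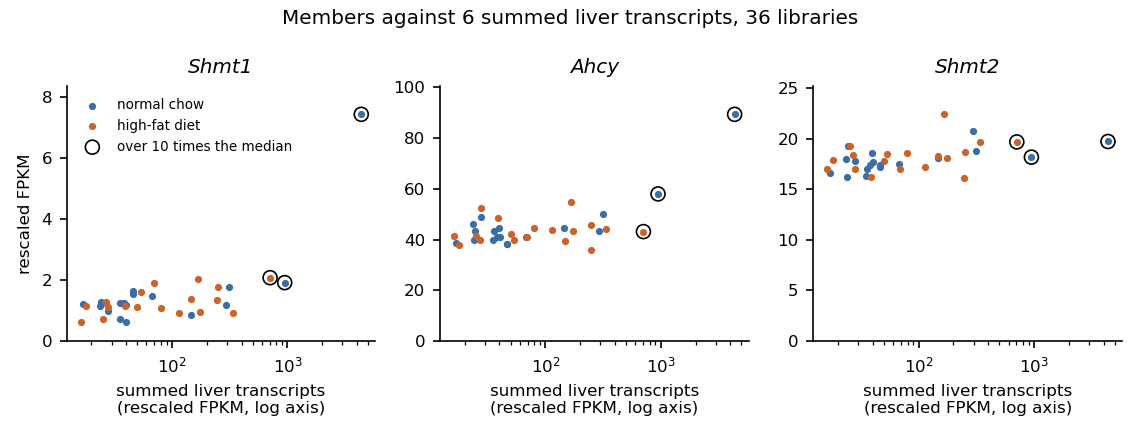
Levels of Shmt1, Ahcy and Shmt2 (rescaled FPKM) against the summed level of 6 liver transcripts (rescaled FPKM, log axis) in 36 libraries; ringed points are the 3 libraries with sums over 10 times the median. Shmt1 and Ahcy reach 7.43 and 89.3 in the library with 4365, where Shmt2 stays within the range of the others.

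Across the 33 libraries without high liver transcripts, Phgdh and Psat1 were higher where the astrocyte markers were higher. These relations pool times and diets, and 63 were computed, those of the 9 genes with each other and with the summed astrocyte, neuronal and liver markers. Of the 63, 11 passed the adjustment in both measures. Phgdh correlated with the astrocyte sum at Pearson r = 0.604 and Spearman rho = 0.614 (n = 33, permutation p = 1.9e-04 and 2.9e-04, adjusted over the 63 relations 0.00299 and 0.00913). Without the 2 libraries farthest from the median astrocyte sum r was 0.697, and it was 0.597 in the 16 normal chow and 0.675 in the 17 high-fat libraries. Psat1 followed at r = 0.553 and rho = 0.510 (adjusted permutation p = 0.00729 and 0.0213), with 0.444 and 0.695 within the diets and 0.556 without the farthest 2. Psph had r = 0.280 and rho = 0.460 with the astrocyte sum and passed only in rho (adjusted permutation p = 0.235 and 0.0351).

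Mthfd2 ran the other way, with r = -0.539 and rho = -0.544 against the astrocyte sum (adjusted permutation p = 0.0106 and 0.0115). Its r was -0.439 in normal chow, -0.681 in high-fat diet and -0.495 without the farthest 2. The neuronal sum correlated negatively with Phgdh, at r = -0.656 and rho = -0.630 (adjusted permutation p = 0.00283 and 0.00913), and with Psph, at r = -0.624 and rho = -0.559 (adjusted permutation p = 0.00283 and 0.00997). Within normal chow and high-fat diet these were -0.668 and -0.677 for Phgdh and -0.654 and -0.657 for Psph, and without the farthest 2 they were -0.632 and -0.530. Psat1 had r = -0.0895 with the neuronal sum (adjusted permutation p = 0.712). All values in a library share its rescaling, and a larger share of 1 cell type lowers the share of the others.

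**Figure D5:**
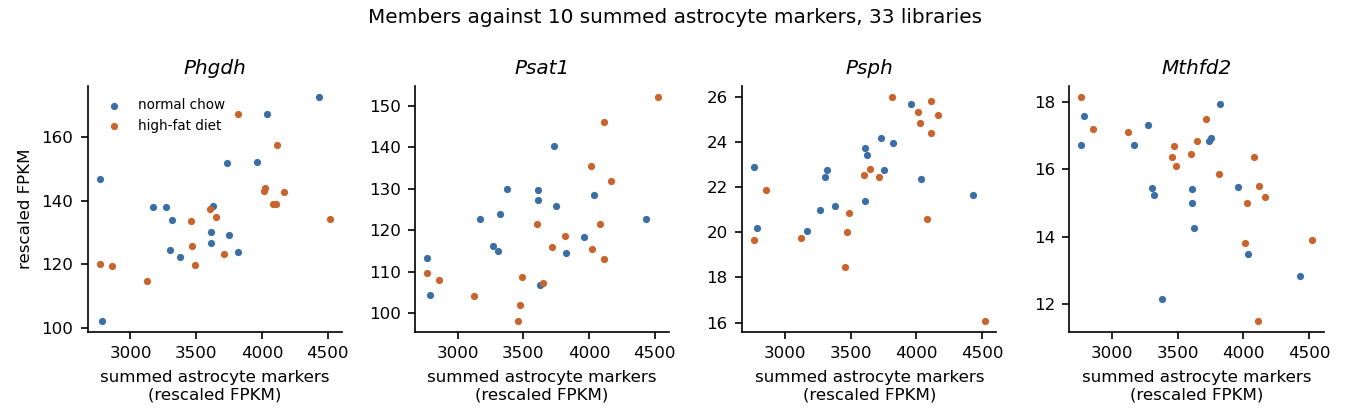
Levels of Phgdh, Psat1, Psph and Mthfd2 (rescaled FPKM) against the summed level of 10 astrocyte markers (rescaled FPKM) in 33 libraries, colored by diet; axes do not start at 0. Phgdh and Psat1 are higher where the sum is higher (r = 0.604 and 0.553) and Mthfd2 is lower (r = -0.539); the lowest Psph value, 16.1, is in the library with the highest sum, 4522.

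Of the 36 pairs of enzyme genes, 6 passed the adjustment in both measures. Phgdh and Psph correlated at r = 0.443 and rho = 0.572 (n = 33, adjusted permutation p = 0.0490 and 0.00997), with 0.482 without the farthest 2 libraries and 0.337 and 0.572 within normal chow and high-fat diet. The neighbouring genes Phgdh and Psat1 had r = 0.362 and did not pass (adjusted permutation p = 0.115). Mthfd2 ran against Psat1 at r = -0.583 (adjusted permutation p = 0.00504, rho -0.549 at 0.00997), which became -0.455 without the farthest 2 and was -0.296 and -0.783 within the diets. It also ran against Shmt1 at r = -0.592 (adjusted permutation p = 0.00378, rho -0.563 at 0.00997), with -0.544 without the farthest 2 and -0.516 and -0.672 within the diets.

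Of the other 3 pairs, Psph and Mthfd1 had r = -0.652 and rho = -0.483 (adjusted permutation p = 0.00299 and 0.0310), which became -0.405 without the farthest 2, -0.292 in normal chow and -0.744 in high-fat diet. Psat1 and Shmt1 had r = 0.492 and rho = 0.464 (adjusted permutation p = 0.0217 and 0.0351), with 0.316 without the farthest 2 and 0.292 and 0.615 within the diets. Psat1 and Mat2a had r = 0.495 and rho = 0.498 (adjusted permutation p = 0.0217 and 0.0270), with 0.396 without the farthest 2 and 0.213 and 0.587 within the diets.

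The rows most like each enzyme gene over the 36 libraries, by Pearson r of log2(value + 1) among rows with a mean of at least 5, are given as a description. For Phgdh they were S100b (0.831), Csrp1 (0.830) and Apoe (0.827), with S100b, an astrocyte marker, and Apoe, a lipid carrier made largely by astrocytes. For Psat1 they were Nde1 (0.847), Igsf11 (0.826) and Hepacam (0.801), an adhesion protein of glia. For Psph they were H2afv (0.776), the peroxiredoxin Prdx6 (0.776) and Commd6 (0.768). Mthfd2 went with Zcchc18 (0.835), Ccdc184 (0.818) and Tspan33 (0.817).

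Mat2a had the closest companions of the 9, Ogt (0.914), Paxbp1 (0.909) and Ubp1 (0.908), where Ogt is the transferase that attaches O-linked N-acetylglucosamine to proteins. For Mthfd1 they were Lrrc8d (0.787), Sh3bp5 (0.780) and the citrate synthase gene Cs (0.757), and for Shmt2 Pak4 (0.702), Fah (0.668) and Hadha (0.652). The companions of Shmt1 and Ahcy rested in part on the libraries with liver transcripts. For Shmt1 they were Cat (0.879), Sord (0.818) and Cth (0.816), and without the 3 libraries the values were 0.597, 0.385 and 0.260. For Ahcy they were Slc27a2 (0.872), its own copy Gm4737 (0.864) and Gm5424 (0.860), which became 0.742, 0.546 and 0.621.

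Genes of the surrounding pathways were followed in 4 lists, and 5 of their members had a called rhythm. Of the 15 folate enzymes and transporters tested in the fit of both diets, 1 was called, against 2.18% of all rows, with a median fold of 1.07. That gene was Mthfd1l, the mitochondrial formate-releasing synthetase that continues the step of Mthfd2. Its peak-to-trough fold was 1.24, peaking at ZT 9.52 (limma adjusted p = 0.0109), with 1.23 on normal chow and 1.28 on high-fat diet. Its lowest normal chow group was ZT 0, with 6.91, 7.43 and 8.78, against 8.98, 12.0 and 8.97 at ZT 8. Under high-fat diet, ZT 20 held 8.20, 9.20 and 7.03 and ZT 8 held 9.54, 11.1 and 10.3, without overlap. Of this list, Fpgs had a diet difference of -0.14 ± 0.056 (SE, unadjusted p 0.0182, limma adjusted p = 1.0). Fpgs, which adds glutamates to folate, and the transporters Slc46a1 and Slc25a32 had rhythm folds of 1.21, 1.10 and 1.20 at unadjusted p-values of 0.00412, 0.0452 and 0.0231, which did not pass. Aldh1l1, a folate dehydrogenase of astrocytes, averaged 74.5 with a fold of 1.07 (limma adjusted p = 0.807).

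Of the 15 methionine cycle and transsulfuration genes, 0 were called in the fit of both diets by limma, 5 had an unadjusted p under 0.05, and 1 was called under normal chow (against 0.845% of all rows). It was Mettl16, the methyltransferase that regulates Mat2a RNA. Its fold under normal chow was 1.41, peaking at ZT 19.9 (limma adjusted p = 0.00817). It was at 23.9, 25.4 and 24.6 at ZT 8 and at 34.4, 38.2 and 35.3 at ZT 16, without overlap. Under high-fat diet its fold was 1.09 (limma adjusted p = 0.815), and the difference in rhythm between diets had an unadjusted p of 0.00644 and a limma adjusted p of 0.357. Its high-fat values at ZT 8 were 29.6, 45.7 and 30.2, and the 45.7 of the second library was the highest of all 36. Mat2a itself had a fold of 1.12 under normal chow (limma adjusted p = 0.472). Mtrr, Cbs, Gamt and Nnmt had folds of 1.17, 1.23, 1.18 and 1.65 with limma adjusted p-values of 0.0675, 0.0897, 0.298 and 0.306. Mtr, the methionine synthase, averaged 4.53 and Mat2b, the regulatory partner of Mat2a, 76.4, with folds of 1.17 and 1.08, and neither passed.

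Of the 14 tested genes of glycine cleavage and serine or glycine transport and use, 1 was called under normal chow, against 0.845% of all rows, and 0 in the fit of both diets by limma (3 at an unadjusted p under 0.05). It was Slc38a2, a transporter of small neutral amino acids. Its fold under normal chow was 1.73, peaking at ZT 15.3 (limma adjusted p = 0.0431). Under high-fat diet its fold was 1.09 (limma adjusted p = 0.868), and the difference in rhythm between diets had a limma adjusted p of 0.357. It was at 45.9, 35.8 and 50.3 at ZT 4 and at 72.9, 76.4 and 80.4 at ZT 16. This call held under 10 of 29 alternative settings, with adjusted p-values from 0.0129 to 0.186. Gldc, the glycine decarboxylase, and Sds, a serine dehydratase, had folds of 1.39 and 1.61 with limma adjusted p-values of 0.329 and 0.211. Srr, which makes D-serine, averaged 38.7 with a fold of 1.07 (limma adjusted p = 0.801).

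Atf4, the transcription factor known to induce Phgdh, Psat1, Psph and Mthfd2 under amino acid shortage, averaged 158 and had a fold of 1.03 (limma adjusted p = 0.918). Of the 14 tested genes of Atf4 and its targets, 2 were called in the fit of both diets, against 2.18% of all rows, and 1 under high-fat diet, against 0.0728%. Gpt2, the mitochondrial alanine aminotransferase, had a fold of 1.36, peaking at ZT 15.5 (limma adjusted p = 1.92e-04), and it was also called under high-fat diet alone, with a fold of 1.48 (limma adjusted p = 0.0461). Slc7a5, a carrier of large neutral amino acids, had a fold of 1.32, peaking at ZT 10.7 (limma adjusted p = 0.00140). Slc7a11 and Ddit4 had folds of 1.18 and 1.27 and did not pass (limma adjusted p = 0.316 and 0.199). The rhythm calls of Mthfd1l, Slc7a5 and Gpt2 in the fit of both diets held under all 47 alternatives and that of Mettl16 under all 29, while that of Gpt2 under high-fat diet alone held under 8 of 29, with adjusted p-values from 0.00131 to 0.437.

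Diet over all time points was called by limma for 0 genes of each of the 4 lists, against 0.0132% of all rows, and only Fpgs had an unadjusted p under 0.05. The median differences were -0.03 for the folate list, -0.0038 for the methionine list, -0.0045 for the glycine and serine list and 0.02 for the ATF4 list on the log2(value + 1) scale, beside -0.00051 for all rows.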

How the data were processed

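RNA from an SCN-enriched region was sequenced in 36 libraries from stranded TruSeq mRNA libraries, per the labels' protocols. The authors used Trimmomatic, TopHat and Cufflinks with builds mm10 and GRCm38, per the submitters' processing notes; versions, options and whether strand was used in counting are not given in the sources used here. The deposited values are taken as FPKM, from the naming of Cufflinks and the values themselves, in a table per diet; they give no read depth, so no counting intervals or floors were computed. The file headers give the numbered time points as ZT.

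Each library was rescaled to a sum of 1000000 over rows common to the tables and transformed as log2(value + 1). Rows with a mean of at least 1 in a fit were tested by limma 3.58.1, trend included, in R 4.3.3, with cosine and sine terms of 24 h for rhythm, and diet as a factor, two-sided, Benjamini-Hochberg adjusted over all rows. Correlations used 100000 permutations (Python 3.11.15, scipy 1.17.1) and are two-sided. The models were tested on simulated data.

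The genes, the related lists, the marker lists and the tests were chosen with earlier results of these data known. Named are the 9 genes, related genes called in a comparison or with an unadjusted p under 0.05 for diet or for rhythm in both diets, 7 related genes always, and the 3 most correlated rows of each. Alternatives changed the scaling, the pseudocount (0.1, 5), the filter (none, 5), the model of time, the trend, a replicate block, the liver-rich and striatum-rich libraries, and each library in turn; the summing of Ahcy with Gm4737, the comparison of diet differences between time points and the correlations were added after seeing the data.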

Additional observations from a re-analysis of the deposited data

Results flagged for a closer look

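The difference between diets in Shmt2 was 0.269 ± 0.115 (SE) larger at ZT 8 than at ZT 12 on the log2(value + 1) scale, with an unadjusted p of 0.0272 and a limma adjusted p of 0.627 over all rows, of which 836 had an unadjusted p under 0.05 for the same contrast. After rescaling, all 3 high-fat libraries lay above all 3 normal chow libraries at ZT 8, and at ZT 12 all 3 lay below them. Of all rows, 17.2% and 4.54% had groups without overlap at these times, with 14.0% above at ZT 8 and 3.07% below at ZT 12. The rescaled ZT 12 values were 17.1, 18.8 and 17.4 under normal chow and 17.0, 16.1 and 17.0 under high-fat diet. As deposited, the groups overlapped at both times. Shmt2 was then at 6.43, 6.69 and 6.45 under normal chow and 7.08, 6.80 and 6.34 under high-fat diet at ZT 8. At ZT 12 it was at 7.10, 6.82 and 6.00 against 7.04, 6.11 and 6.18. Under this scaling the median difference over all rows was 0.118 at ZT 8 and -0.0247 at ZT 12, and with median-of-ratios factors Shmt2 at ZT 8 was 0.06. Summed meninges markers also lay lower under high-fat diet at ZT 12, at 142, 142 and 198 against 54.8, 112 and 102, and their part in the result was not tested. These time points were compared after the values were seen. The rescaled ZT 8 values rest in part on the second high-fat library, where Shmt2 was 22.4 after rescaling.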

How the results depend on the processing

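No enzyme gene gained or lost a call: 53 results were recomputed under 12 alternatives and with each of the 36 libraries left out, 2109 values in all. Of these, 38 changed sign, all of them diet differences. The other 2071 were unchanged, where a rhythm fold has no sign and only its call was compared. The smallest adjusted p among the 2109 was 0.0523 (limma), for Mthfd1 at ZT 8 without the first high-fat library, where the count over all rows went from 0 to 1099. The differences over all time points lie near 0 and changed sign easily. As deposited, Phgdh was -0.0061 and Mthfd1 -0.0062; with median-of-ratios factors they were -0.00016 and -0.00078. Without the liver-rich libraries Phgdh was -0.0171, Shmt1 0.0187 and Ahcy 0.0146, and Ahcy at ZT 0 was 0.0278; without the striatum-rich libraries Phgdh was -0.0112. With single libraries left out, the diet difference ranged from -0.0178 to 0.0269 for Phgdh, -0.0357 to 0.00743 for Psat1, -0.0295 to 0.00986 for Psph, -0.117 to 0.0229 for Shmt1 and -0.0163 to 0.0146 for Mthfd1; at ZT 0 it ranged from -0.969 to 0.0095 for Shmt1 and from -0.525 to 0.0291 for Ahcy. The cause was not tested. The rhythm count over all rows under normal chow went from 128 to 260 with median-of-ratios factors, 204 without the liver-rich libraries and 50 with time as a factor, and from 48 to 162 with single libraries left out; under high-fat diet it went from 11 to 7 with a pseudocount of 5, 5 with no filter and 2 with time as a factor, and from 4 (without the first ZT 4 library) to 13 with single libraries left out. The replicate numbers were not taken as pairs, since the labels state no shared litter, batch or day. Same-numbered libraries of different groups deviated together at a median r of 0.0254 (-0.346 to 0.555), against -0.0166 for other numbers. For the same number and time point in the other diet the median r was 0.103. Of the 36 libraries, 25 correlated best with their own number, so the numbers cannot be taken as unrelated to the values. With replicate number as a block, 0 of 9 genes were called in each comparison. The rhythm counts over all rows were then 90 under normal chow, 7 under high-fat diet and 366 in both. Shmt1 could not be tested with a filter at a mean of 5. Unknown depth limits Shmt1 most, which has the lowest level.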
